A study of Mus musculus with 6 samples.

Results

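The nuclear genes for the subunits of respiratory complexes I, III and IV and of ATP synthase (complex V) were compared between AEG-1 knockout (AEG-1 KO) and wild-type (WT) macrophages. Members were the protein-coding genes whose mouse symbols begin with Nduf and a subunit letter and number, with Uqcr, with Cox4 to Cox8 or with Atp5. They numbered 79 of the 46983 gene identifiers in the count table: 37 in complex I, 8 in complex III, 17 in complex IV and 17 in complex V. The cells of both groups were untreated macrophages grown from the femur marrow of C57BL/6 mice, cultured for 7 days with 20% L929 conditioned medium, a source of macrophage growth factor, and 10% serum. The WT group had 3 libraries and the AEG-1 KO group, from mice that lack AEG-1, the protein of the gene Mtdh, had 3 libraries. The labels give no age or sex, and do not state how the allele was made. Whether replicates were separate animals or cultures is not stated, and the p-values below therefore measure only how far these libraries spread, which may be technical.

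Oxidative phosphorylation takes electrons from nutrients, passes them along the respiratory chain and uses the released energy to pump protons across the inner mitochondrial membrane. Complex I takes electrons from NADH, complex III passes them from ubiquinol to cytochrome c, and complex IV passes them to oxygen. Complex V lets the protons flow back and makes ATP. The subunits are encoded partly in the nucleus and partly in mitochondrial DNA, and macrophages are known to shift between this route and glycolysis when they are activated.

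Total counts were 42548170 to 58947230 per library. Mtdh had 11560, 14849 and 11806 counts in WT replicates 1 to 3 and 15, 22 and 15 counts in AEG-1 KO replicates 1 to 3, so each library matched its label. Levels are given in CPM, the counts of each library brought to a common total with TMM factors. Across all genes, edgeR called 1023 of 16115 tested genes at an adjusted p under 0.05, or 6.35%, with 533 higher (3.31%) and 490 lower (3.04%) in AEG-1 KO. The 8 macrophage markers summed to 17670 to 18150 CPM in WT and 18160 to 18840 CPM in AEG-1 KO, with 3 called higher and 1 lower. The 37 mitochondrially encoded genes, 13 of them for proteins, had no counts in any library, so the mitochondrial share of each complex was not analysed here.

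The subunit genes differed little between genotypes. Of the 75 members tested, 0 were called higher and 1 was called lower in AEG-1 KO, Atp5o, so that 1.33% of members were called beside 6.35% of all genes. At an unadjusted p under 0.05 there were 9 members (7 lower and 2 higher), beside 21.6% of all genes tested. Log2 fold changes were below 0 in 55 members and above 0 in 20, with a median of -0.05 beside 0.01 over all genes. Restricted to genes averaging 10 CPM or more, edgeR called 1 of 65 members, beside 8.62% of 9127 genes. There, 48 of the 65 members (73.8%) had a value below 0, beside 48.5% of the 9127 genes. All of these 65 members lay within 0.25 of 0 on the log2 scale, as did 91.0% of these 9127 genes. The 95% interval of the fold change stayed within 1.5-fold in either direction for 70 of the 75 tested members. In bulk RNA, fewer cells of a type and less RNA per cell cannot be told apart.

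**Figure D1:**
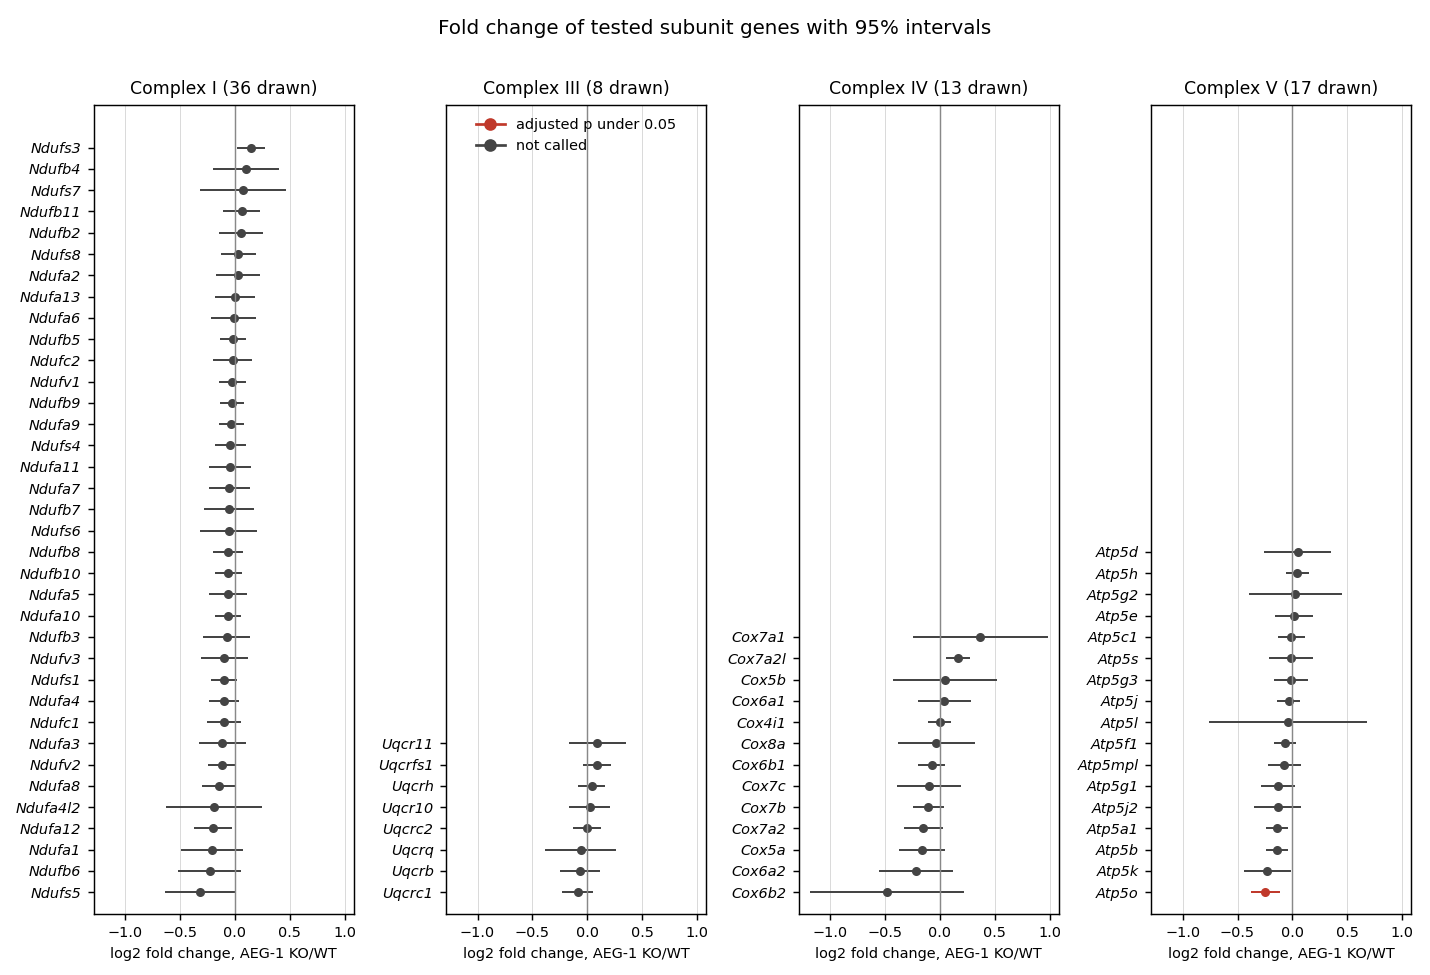
Each point is the edgeR log2 ratio of AEG-1 KO to WT (3 libraries each) for 1 tested subunit gene, and each line its 95% interval, in 4 panels by complex, with 74 genes drawn. Atp5o, at -0.25, is the 1 gene in red (adjusted p under 0.05), and most points lie a little to the left of 0.

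Summed over all 79 members, levels were 4971, 4993 and 4727 CPM in WT replicates 1 to 3 and 4620, 4589 and 4867 CPM in AEG-1 KO replicates 1 to 3. The genotypes overlapped, and the AEG-1 KO mean was 95.8% of the WT mean. By complex, the AEG-1 KO mean of the summed CPM was 96.7% of WT in complex I, 99.3% in complex III, 98.1% in complex IV and 93.3% in complex V. Complex V was the 1 complex whose sums did not overlap: 2069, 2078 and 1998 CPM in WT against 1894, 1879 and 1963 CPM in AEG-1 KO. Its 2 most counted genes, Atp5a1 and Atp5b, made up more than the rest of that sum together.

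Levels spanned a wide range. Of the 79 members, 10 had a mean of 100 CPM or more, 55 had 10 to under 100 CPM, 7 had 1 to under 10 CPM and 5 had less than 1 CPM. Cox8b and Cox8c had 0 counts in all 6 libraries. Per kilobase of exon, the highest means were those of Cox6b1 (176 CPM per kb), Atp5a1 (168), Cox4i1 (164), Cox6a1 (136), Atp5b (135) and Cox8a (105). With the length of the principal transcript in place of all exons, the order of the first 4 became Cox4i1, Atp5b, Atp5a1 and Cox6b1, so this order rests on the length used.

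**Figure D2:**
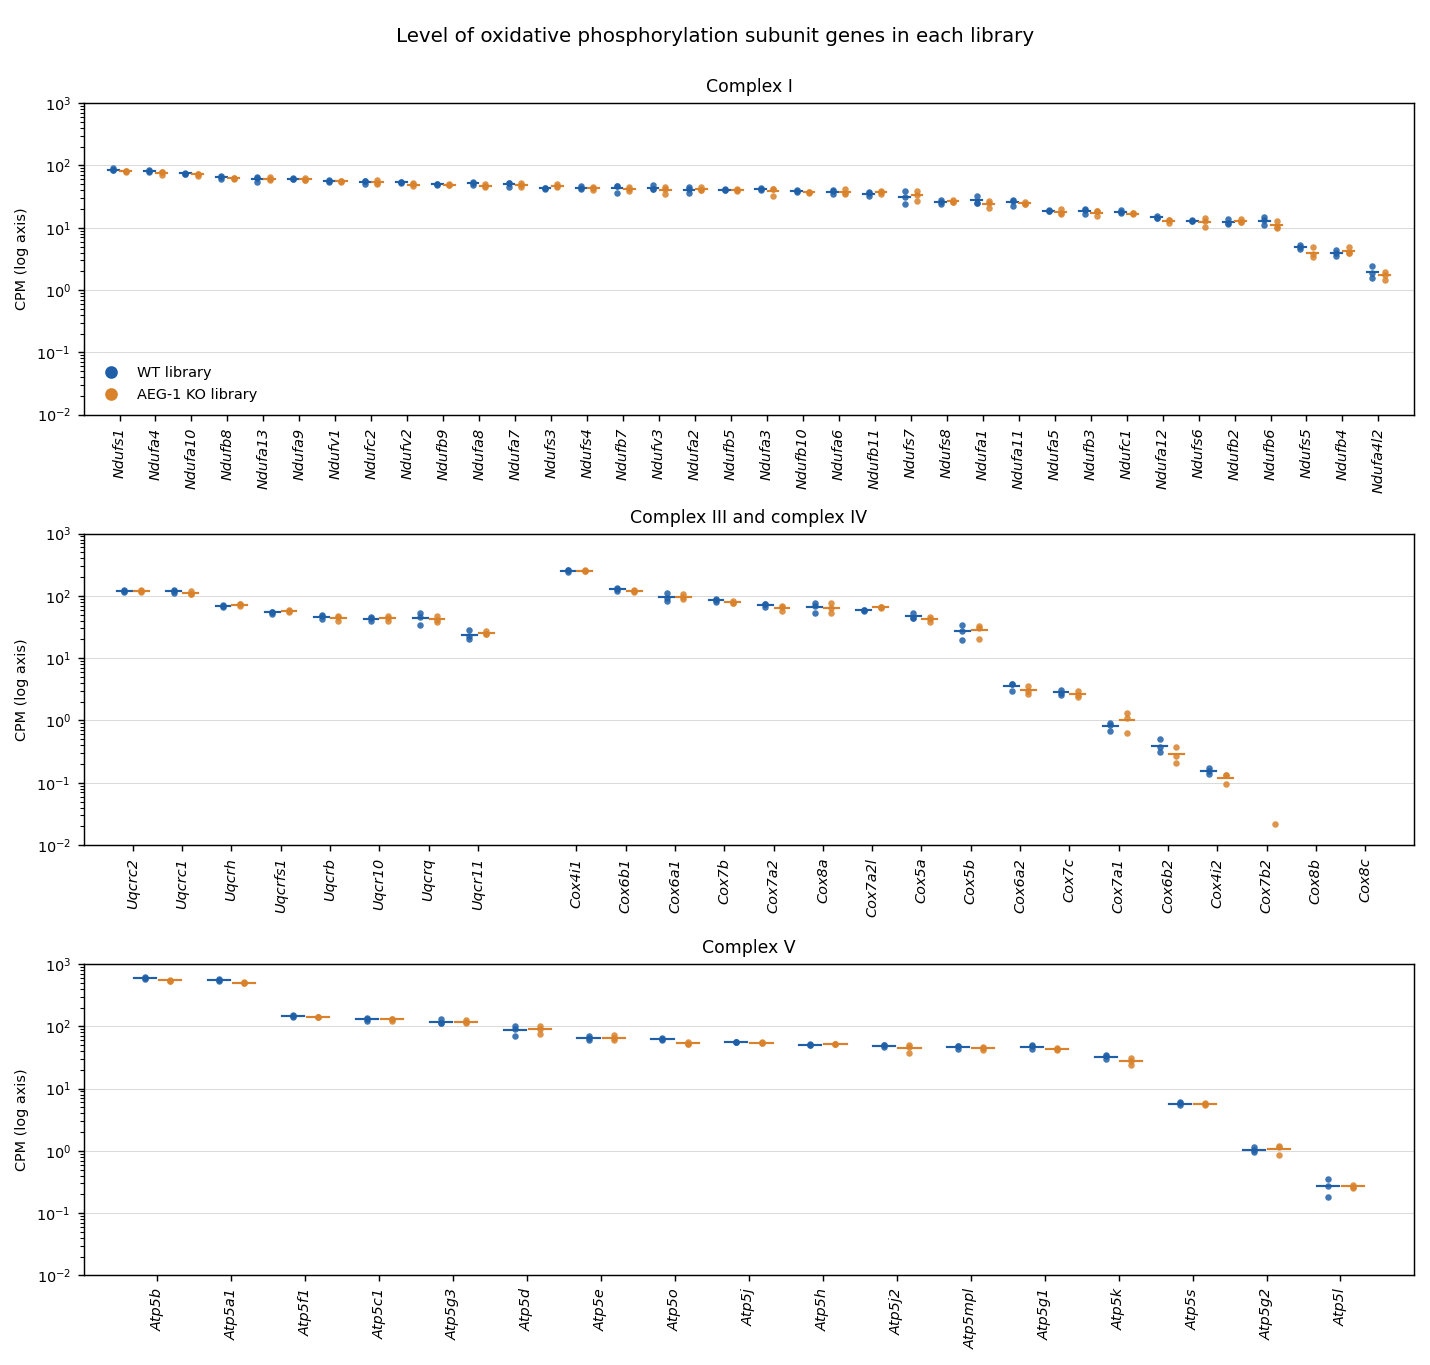
Each point is the level of 1 subunit gene in 1 library in CPM (log axis), with WT in blue and AEG-1 KO in orange, short bars at the mean of 3 libraries, and 78 genes ordered by mean level within each complex. Values of 0 are not drawn, so Cox8b and Cox8c have no points and Cox7b2 has 1; the blue and orange points of most genes overlap.

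Complex I members comprise core subunits, which carry the flavin and the iron-sulfur clusters, and accessory subunits around them. None of the 37 was called. The other 30 genes, grouped here as accessory, include Ndufa4, whose protein is known as a complex IV subunit, and Ndufa4l2. Both also count in the complex I totals above. The 30 genes summed to 1098, 1130 and 1039 CPM in WT and to 1031, 1006 and 1107 CPM in AEG-1 KO. The genotypes overlapped, with the AEG-1 KO mean at 96.2% of WT.

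Ndufs3, a core subunit of the arm that reaches into the matrix, measured 42.8, 43.5 and 41.8 CPM in WT and 44.6, 49.7 and 47.6 CPM in AEG-1 KO. All AEG-1 KO libraries were above all WT libraries, but the log2 fold change of 0.15 ± 0.05 (SE) was not called by edgeR (adjusted p = 0.149). It was the highest value among complex I members, followed by Ndufb4 at 0.11 ± 0.13. At the other end, Ndufs5 measured 4.59, 5.37 and 4.93 CPM in WT and 3.75, 3.38 and 4.84 CPM in AEG-1 KO, which gave -0.32 ± 0.14 on the log2 scale, not called (edgeR adjusted p = 0.222). AEG-1 KO replicate 3 lay inside the WT range, and without it the value was -0.49 and still not called (edgeR adjusted p = 0.0716). Ndufb6, an accessory subunit of the membrane arm, measured 14.7, 13.2 and 11.1 CPM in WT and 10.0, 10.4 and 12.9 CPM in AEG-1 KO, with overlapping groups (-0.23 ± 0.12, edgeR adjusted p = 0.328).

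Other complex I members, named after their values were seen, had groups that did not overlap without being called. Ndufs1, which carries iron-sulfur clusters, measured 83.2, 84.1 and 90.8 CPM in WT and 81.0, 81.0 and 79.4 CPM in AEG-1 KO. Ndufv2, also an iron-sulfur subunit, measured 52.4, 54.5 and 53.6 CPM in WT and 51.7, 46.4 and 49.6 CPM in AEG-1 KO. Ndufa12, an accessory subunit, measured 14.5, 15.3 and 14.5 CPM in WT and 13.5, 11.8 and 13.4 CPM in AEG-1 KO. With Ndufs3, these made 4 of 37 complex I members without overlap. Adding the reads of a near-identical pseudogene made the genotypes overlap in Ndufa12 (34.2 to 41.0 CPM in WT, 28.6 to 34.3 CPM in AEG-1 KO). The same held for Ndufs3 (52.0 to 54.3 CPM in WT, 54.2 to 61.1 CPM in AEG-1 KO). Over all 75 tested members the count was 11 (3 higher and 8 lower), beside 26.8% of all genes tested (13.9% higher and 12.9% lower).

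Highest per kilobase of all exons in complex I were Ndufc2 (71.7 CPM per kb) and Ndufa2 (71.6). This order too rests on the length used: per kilobase of the principal transcript, Ndufa4 (129 CPM per kb), Ndufb8 (93.7) and Ndufa7 (92.8) stood above Ndufc2 (79.1) and Ndufa2 (71.6). Ndufc2 measured 56.0, 57.0 and 50.1 CPM in WT against 50.1, 51.8 and 59.2 CPM in AEG-1 KO, and Ndufa2 44.7, 41.1 and 35.7 against 39.7, 39.8 and 44.8 CPM. Both overlapped between genotypes, with log2 fold changes of -0.02 and 0.03. Ndufa4, which is named as a complex I gene but whose protein is known as a subunit of complex IV, measured 79.2, 81.6 and 83.4 CPM in WT and 78.4, 69.7 and 79.7 CPM in AEG-1 KO (-0.10 ± 0.06, edgeR adjusted p = 0.364). Its relative Ndufa4l2, known to be induced by low oxygen, stood far lower at 1.59, 1.86 and 2.45 CPM in WT and 1.98, 1.71 and 1.45 CPM in AEG-1 KO. Per kilobase of all exons the mean was 57.0 CPM for Ndufa4 and 1.68 CPM for Ndufa4l2.

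None of the 8 members of complex III was called. Their log2 fold changes ran from -0.09 to 0.09, with 4 above and 4 below 0 and a median of 0.01. No member had groups without overlap. This was the narrowest range of the 4 complexes, but a range depends on the number of genes, and complex III had the fewest. Its median absolute log2 fold change was 0.064, beside 0.062 in complex I, 0.105 in complex IV and 0.049 in complex V. Uqcrc1, a core subunit, marked the low end at 123, 121 and 109 CPM in WT and 106, 108 and 118 CPM in AEG-1 KO. Uqcrfs1, the Rieske iron-sulfur subunit that hands on the electron, measured 56.0, 51.1 and 56.0 CPM in WT and 55.7, 58.0 and 59.4 CPM in AEG-1 KO (0.09 ± 0.05, 95% interval -0.03 to 0.21). Uqcr11, a small accessory subunit, marked the high end at 0.09 ± 0.11. Uqcrb had -0.07 ± 0.08. Uqcr10 and Uqcrh, small subunits with the highest levels per kilobase in the complex (73.8 and 56.8 CPM per kb), had 0.02 ± 0.08 and 0.04 ± 0.05.

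Complex IV is known for subunits that exist in alternative forms, 1 widespread and 1 restricted to muscle, lung or testis. Main-form genes made up most of the complex IV signal in CPM. The 9 of them summed to 802, 790 and 732 CPM in WT and 722, 741 and 793 CPM in AEG-1 KO. They include Cox5a, Cox5b and Cox7c, which have no second form among the members, and leave out Cox7a2l. The 7 second forms (Cox4i2, Cox6a2, Cox6b2, Cox7a1, Cox7b2, Cox8b and Cox8c) summed to 5.21, 5.14 and 4.35 CPM in WT and 4.84, 3.57 and 5.09 CPM in AEG-1 KO. Both sums overlapped between genotypes. None of the 13 complex IV members tested was called, and 4 members (Cox4i2, Cox7b2, Cox8b and Cox8c) had too few counts to test.

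Cox4i1, the widespread form of the largest nuclear-encoded subunit, measured 259, 262 and 244 CPM in WT and 250, 255 and 259 CPM in AEG-1 KO. The means were 255 ± 9.46 and 255 ± 4.55 CPM (SD, n = 3), and the 95% interval of the log2 fold change ran from -0.10 to 0.09. Its second form Cox4i2, known from lung and from cells at low oxygen, had 7, 10 and 6 counts in WT and 6, 4 and 6 counts in AEG-1 KO.

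For the other pairs the order was the same. Cox6a1 measured 109, 92.5 and 81.2 CPM in WT and 88.6, 96.2 and 106 CPM in AEG-1 KO, while Cox6a2, the form of heart and skeletal muscle, measured 3.83, 3.81 and 3.01 against 2.97, 2.63 and 3.59 CPM. Per kilobase the means were 136 and 4.86 CPM. Cox6b1 measured 121, 134 and 127 CPM in WT and 120, 117 and 126 CPM in AEG-1 KO, and Cox6b2, the testis form, had 9 to 29 counts per library. Its log2 fold change of -0.48 ± 0.31 was the lowest of all tested members and was not called (edgeR adjusted p = 0.412).

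Cox7a2 measured 67.1, 74.1 and 73.0 CPM in WT and 66.2, 57.2 and 69.4 CPM in AEG-1 KO (-0.15 ± 0.07, edgeR adjusted p = 0.276). Cox7a1, the muscle form, had 27 to 60 counts per library and the highest log2 fold change of all tested members, 0.37 ± 0.27, with overlapping groups (edgeR adjusted p = 0.479). Cox7b measured 75.6 to 88.3 CPM over the 6 libraries, whereas Cox7b2 had 1 count in AEG-1 KO replicate 1 and 0 elsewhere. Cox8a measured 76.3, 67.8 and 52.4 CPM in WT and 52.7, 62.8 and 76.7 CPM in AEG-1 KO, with the libraries of both genotypes spread over nearly the same range. For Cox8b and Cox8c, a count of 0 allows up to 3 counts over the 3 libraries of a genotype, which is 0.02045 CPM for WT and 0.02265 CPM for AEG-1 KO. The 5 muscle and heart markers (Myh6, Ckm, Acta1, Tnnt2 and Mb) were each under 1 CPM and summed to 0.336, 0.479 and 0.486 CPM in WT and 0.3995, 0.329 and 0.201 CPM in AEG-1 KO, with Mb at 0.

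The remaining main forms included Cox5a, at 53.2, 43.5 and 43.6 CPM in WT and 38.1, 42.2 and 45.1 CPM in AEG-1 KO (-0.16 ± 0.09, edgeR adjusted p = 0.341). Cox5b, its partner subunit facing the matrix, is described below with the spread between libraries. Cox7a2l, known as a factor that joins complexes III and IV into a supercomplex, was the member nearest to a call in the higher direction. It measured 59.8, 56.7 and 59.04 CPM in WT and 66.0, 64.6 and 66.5 CPM in AEG-1 KO, so that all AEG-1 KO libraries were above all WT libraries. The log2 fold change was 0.17 ± 0.04 (95% interval 0.07 to 0.27, edgeR adjusted p = 0.0567). A processed pseudogene on chromosome 12, Gm6969, is 97.7% identical to it over 342 nt and measured 49.1, 59.4 and 50.04 CPM in WT and 47.3, 40.8 and 46.2 CPM in AEG-1 KO. With the reads of both added together, the log2 fold change was -0.01 ± 0.05 (edgeR adjusted p = 0.926), so the value of Cox7a2l is uncertain.

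Complex V holds the F1 head that makes ATP, a central stalk, a ring of c subunits in the membrane that turns as protons pass, and a peripheral stalk that holds the head still. Of its 17 members, 1 was called (5.88%). The 5 genes of the F1 head and its central stalk summed to 1446, 1457 and 1392 CPM in WT and 1308, 1316 and 1360 CPM in AEG-1 KO. The 4 of the peripheral stalk summed to 317, 319 and 312 CPM in WT and 299, 296 and 305 CPM in AEG-1 KO. Neither sum overlapped between genotypes, and the AEG-1 KO means were 92.8% and 94.9% of WT. Among single genes, 26.8% of all tested did not overlap, and these groups were set by hand after the values were seen. Atp5a1 and Atp5b held most of the head and central stalk sum. Of its 5 genes, 3 had log2 fold changes below 0 and 2 above, with a median of -0.01. In the peripheral stalk, 3 were below 0 and 1 above. The 3 c-subunit genes (97.0% of WT) and the 4 other membrane subunit genes (91.0% of WT) had sums that overlapped. Atp5s, also called factor B, carries the symbol of the family without being a subunit of the enzyme, and measured 5.37 to 6.01 CPM in WT and 5.52 to 5.84 CPM in AEG-1 KO.

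Atp5o (ENSMUSG00000022956, minus strand of chr16:91925214-91931687, GRCm38) codes for the subunit at the top of the peripheral stalk that binds the F1 head. It measured 60.7, 65.3 and 63.5 CPM in WT and 51.3, 51.8 and 56.7 CPM in AEG-1 KO. All AEG-1 KO libraries were below all WT libraries. Atp5o fell, with a log2 fold change of -0.25 ± 0.06 (95% interval -0.37 to -0.12, edgeR adjusted p = 0.0322), from 63.1 ± 2.34 to 53.3 ± 3.01 CPM (SD, n = 3). The call was lost without WT replicate 2 (-0.22, edgeR adjusted p = 0.142), without AEG-1 KO replicate 1 (-0.22, adjusted p = 0.113) and without AEG-1 KO replicate 2 (-0.23, adjusted p = 0.137). Atp5o also has a processed pseudogene, Gm5436, on chr12:84258331-84258973, which measured 30.1, 36.8 and 33.8 CPM in WT and 34.3, 33.5 and 29.3 CPM in AEG-1 KO, with overlapping groups. With both added together the log2 fold change was -0.18 ± 0.05 and was not called (edgeR adjusted p = 0.0769). Exons of Atp5o overlap those of 2 antisense genes, Gm15976 and D430001F17Rik, which had means of 0 and 0.0134 CPM in WT. The coding sequences of Atp5o and its pseudogene are shown because read counts of the 1 called member depend on telling them apart. Over 642 nt they differ at 19 positions, and the first 300 nt hold 11 of these, in capitals:
Atp5o: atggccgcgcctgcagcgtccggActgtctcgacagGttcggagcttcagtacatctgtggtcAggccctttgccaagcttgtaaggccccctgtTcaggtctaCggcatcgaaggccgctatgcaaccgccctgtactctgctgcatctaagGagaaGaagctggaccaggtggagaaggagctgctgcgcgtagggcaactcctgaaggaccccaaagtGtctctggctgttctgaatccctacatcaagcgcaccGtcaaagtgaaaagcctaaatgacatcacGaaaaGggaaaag
Gm5436: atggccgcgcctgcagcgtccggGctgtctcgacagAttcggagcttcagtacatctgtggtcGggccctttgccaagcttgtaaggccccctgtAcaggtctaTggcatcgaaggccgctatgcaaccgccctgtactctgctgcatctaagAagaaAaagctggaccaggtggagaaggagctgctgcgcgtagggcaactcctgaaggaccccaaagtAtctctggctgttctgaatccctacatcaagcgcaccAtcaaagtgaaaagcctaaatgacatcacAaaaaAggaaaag

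The 2 subunits that alternate in the F1 head had log2 fold changes of the same size, and neither passed the threshold. Atp5b (beta), which holds the catalytic sites, measured 614, 602 and 583 CPM in WT and 536, 537 and 559 CPM in AEG-1 KO, giving -0.14 ± 0.04 on the log2 scale (95% interval -0.23 to -0.05, edgeR adjusted p = 0.0722). Atp5a1 (alpha) measured 539, 573 and 543 CPM in WT and 501, 496 and 506 CPM in AEG-1 KO, also -0.14 ± 0.04 (edgeR adjusted p = 0.0737). In both genes all AEG-1 KO libraries were below all WT libraries. The ratio of Atp5a1 to Atp5b in CPM was 0.878, 0.951 and 0.932 in WT and 0.934, 0.923 and 0.905 in AEG-1 KO. DESeq2 called both, at adjusted p = 0.0260 for Atp5b and 0.0315 for Atp5a1. The central stalk genes stood nearer 0: Atp5c1 (gamma) had -0.01 ± 0.05, Atp5d (delta) 0.05 ± 0.13 and Atp5e (epsilon) 0.02 ± 0.07.

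The other peripheral stalk genes stood nearer 0 than Atp5o. Atp5f1 (subunit b) measured 151, 147 and 142 CPM in WT and 140, 139 and 141 CPM in AEG-1 KO, without overlap and not called (-0.07 ± 0.04). Atp5j (coupling factor 6) measured 55.8, 56.2 and 56.0 CPM in WT and 55.7, 54.2 and 54.3 CPM in AEG-1 KO, without overlap but with a log2 fold change of -0.03 ± 0.04. Atp5h (subunit d) measured 50.2, 51.0 and 50.3 CPM in WT and 52.7, 51.1 and 52.6 CPM in AEG-1 KO, with all AEG-1 KO libraries above all WT libraries at 0.05 ± 0.04. None of these was called. Atp5k (subunit e), in the membrane part where enzymes pair up, measured 30.0, 33.0 and 34.2 CPM in WT and 31.1, 24.2 and 27.6 CPM in AEG-1 KO (-0.23 ± 0.09, edgeR adjusted p = 0.179).

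Atp5g1, Atp5g2 and Atp5g3 code for precursors of the same mature c subunit. In CPM per kilobase, Atp5g3 made up 84.7, 83.2 and 84.8% of the 3 in WT and 84.0, 85.7 and 85.9% in AEG-1 KO. Atp5g1 made up 14.3, 15.8 and 14.3% in WT and 14.8, 13.5 and 13.1% in AEG-1 KO, and Atp5g2 made up 0.934 to 0.990% in WT and 0.818 to 1.16% in AEG-1 KO. The exact permutation p (two-sided, 3 against 3) was 0.3, 0.3 and 0.7 for Atp5g3, Atp5g1 and Atp5g2, with Benjamini-Hochberg values over the 3 tests of 0.45, 0.45 and 0.7. The smallest p this design allows is 0.1. Adding the reads of near-identical copies turned the order round: Atp5g2 then made up 52.6 ± 1.62% in WT and 53.1 ± 0.487% in AEG-1 KO (SD, n = 3), so the order of the 3 genes cannot be read from their counts alone.

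Many subunit genes have processed copies elsewhere in the genome. Of the 79 members, 21 had 39 copies with at least 95% identity over at least 100 nt. In 5 members (Atp5l, Atp5g2, Cox7c, Ndufs5 and Ndufa12) the copies held more counts than the gene itself. Atp5l had a mean of 12.8 counts per library beside 4523 for its 8 copies, Atp5g2 had 49.0 beside 5781 for its 2, and Cox7c had 128 beside 1954 for its 2. The levels of these members are uncertain, because the counting of reads with several matches is not given in the sources used here. Of the 28 copies tested, 0 were called higher and 2 lower by edgeR, a share near the 6.35% of all genes tested (3.31% higher and 3.04% lower). The 2 were BC002163, a copy of Ndufs5 (-0.26 ± 0.06, adjusted p = 0.0395), and Gm2962, a copy of Uqcrb (-0.57 ± 0.13, adjusted p = 0.0354).

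**Figure D3:**
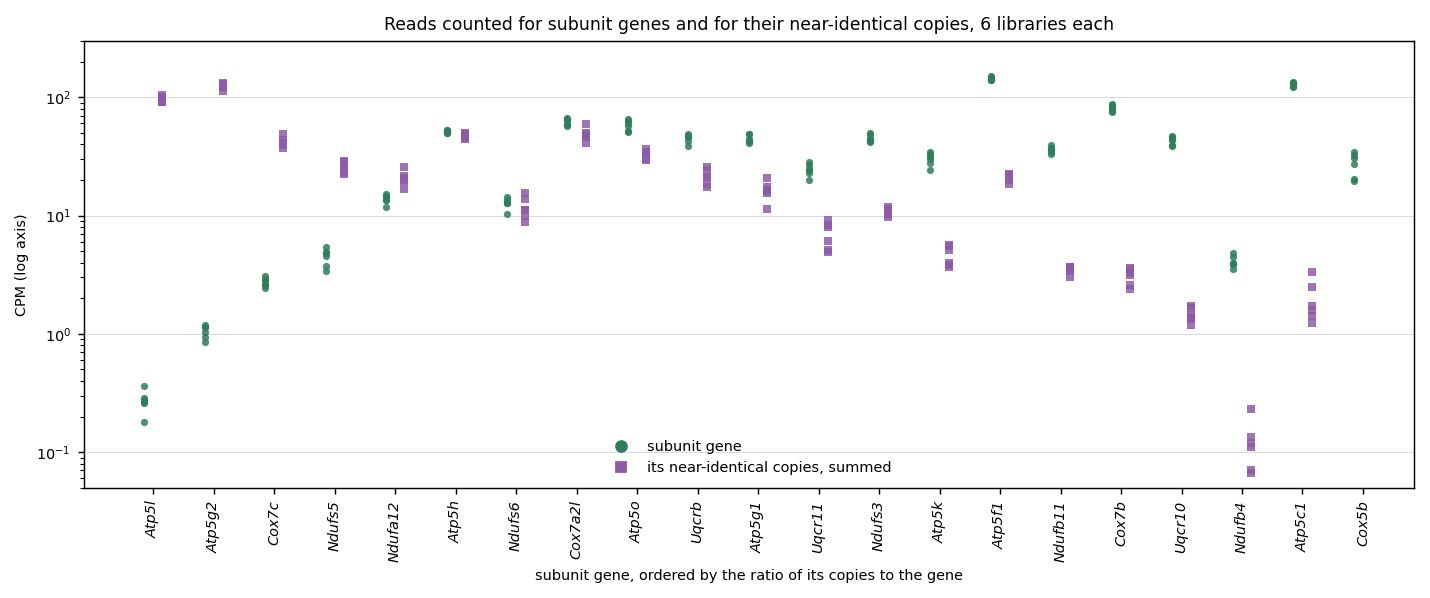
Each green circle is the CPM (log axis) of 1 subunit gene in 1 of 6 libraries and each purple square the summed CPM of its near-identical copies in that library, for the 21 genes with copies. Genes are ordered by the ratio of copies to gene, from Atp5l, where the copies held 99.7% of the counts, to Cox5b, whose copy had 0 counts and is not drawn.

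With copies added, Ndufs5 and BC002163 together measured 31.3, 34.4 and 33.2 CPM in WT and 26.6, 28.2 and 27.5 CPM in AEG-1 KO. All AEG-1 KO sums were below all WT sums, and the sum fell, at -0.27 ± 0.06 (log2) and an edgeR adjusted p of 0.0247. Counted this way, it was the 1 member called. BC002163 lies on chr16:42955631-42955949 (GRCm38). Over 319 nt of coding sequence it differs from Ndufs5 at 2 positions, both in capitals within the first 300 nt:
Ndufs5: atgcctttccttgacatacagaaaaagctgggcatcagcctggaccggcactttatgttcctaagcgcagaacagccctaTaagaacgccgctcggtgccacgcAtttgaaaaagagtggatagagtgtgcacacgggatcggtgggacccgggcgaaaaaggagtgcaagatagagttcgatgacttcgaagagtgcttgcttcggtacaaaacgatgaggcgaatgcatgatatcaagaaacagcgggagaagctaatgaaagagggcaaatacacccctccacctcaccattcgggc
BC002163: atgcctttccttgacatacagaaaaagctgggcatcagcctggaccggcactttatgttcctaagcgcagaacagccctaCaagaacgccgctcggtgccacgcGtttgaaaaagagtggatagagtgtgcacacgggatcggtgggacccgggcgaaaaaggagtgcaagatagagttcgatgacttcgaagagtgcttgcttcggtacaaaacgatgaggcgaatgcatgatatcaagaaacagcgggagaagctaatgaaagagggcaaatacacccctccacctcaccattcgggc

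Cox7c, an essential small subunit of complex IV, measured 2.78, 3.09 and 2.59 CPM in WT and 2.42, 2.94 and 2.61 CPM in AEG-1 KO. Its copy Gm10012 (chr17:25901856-25902227) measured 34.0, 42.2 and 34.7 CPM in WT and 34.4, 32.7 and 36.6 CPM in AEG-1 KO. The gene and the copy each had overlapping groups. Their coding sequences of 192 nt differ at 2 positions, in capitals, and a second copy, Gm12338, is identical to the gene over the same 192 nt:
Cox7c: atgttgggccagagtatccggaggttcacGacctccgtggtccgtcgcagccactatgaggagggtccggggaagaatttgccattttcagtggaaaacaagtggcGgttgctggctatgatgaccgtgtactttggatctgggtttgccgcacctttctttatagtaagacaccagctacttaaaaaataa
Gm10012: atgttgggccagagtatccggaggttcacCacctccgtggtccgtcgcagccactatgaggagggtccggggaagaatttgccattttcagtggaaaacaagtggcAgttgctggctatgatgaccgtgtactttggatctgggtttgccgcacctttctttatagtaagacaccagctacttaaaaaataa

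Atp5g2 showed the same at a larger scale. It measured 1.14, 1.04 and 0.948 CPM in WT and 1.198, 0.845 and 1.14 CPM in AEG-1 KO, while Gm10175 (chr7:23946646-23947290) measured 129, 132 and 113 CPM in WT and 121, 121 and 127 CPM in AEG-1 KO. All 441 nt of the coding sequence are identical in Gm10175, so no read from this stretch separates the 2, and the first 300 nt are:
Atp5g2: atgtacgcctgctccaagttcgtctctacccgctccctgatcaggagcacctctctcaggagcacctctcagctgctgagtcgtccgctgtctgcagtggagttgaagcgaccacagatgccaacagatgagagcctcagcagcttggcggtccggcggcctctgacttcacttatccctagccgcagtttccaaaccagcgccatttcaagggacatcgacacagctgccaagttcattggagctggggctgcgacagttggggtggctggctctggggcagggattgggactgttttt

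The spread between replicates was large beside the differences between genotypes. Over the 65 members averaging 10 CPM or more, the median SD within genotypes was 0.09 on the log2 scale, beside 0.07 over all tested genes at that level. Cox5b varied most: 34.3, 27.1 and 19.6 CPM in WT and 20.5, 30.5 and 32.8 CPM in AEG-1 KO. Its groups covered nearly the same range, and its 95% interval ran from -0.42 to 0.51. Ndufs7, an iron-sulfur subunit of complex I named here after its values were seen, measured 39.4, 30.8 and 24.3 CPM in WT and 27.4, 33.2 and 38.8 CPM in AEG-1 KO. In Atp5d the values were 99.7, 88.9 and 69.9 CPM in WT and 75.5, 91.7 and 100.3 CPM in AEG-1 KO.

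In these genes WT replicate 1 was above WT replicate 3, and AEG-1 KO replicate 3 was above AEG-1 KO replicate 1. Both held in 37 of the 65 members (56.9%), beside 34.9% of all genes at that level. They held in 8 of the 8 most variable members but not in the next, Ndufs6, so that count rests on where the list was cut. Offsets that take out length and GC trends within each library brought the median SD of the members to 0.08. Some of the most variable members changed more: the SD of Ndufs7 went from 0.30 to 0.16, that of Atp5d from 0.24 to 0.11 and that of Cox8a from 0.27 to 0.15. Cox5b kept its spread, at 0.39 before and after. In other members the SD rose, from 0.03 to 0.11 in Atp5f1, from 0.02 to 0.06 in Ndufb9 and from 0.15 to 0.18 in Cox5a. The labels name no batch that separates these libraries, and the part of library preparation in this spread was not tested.

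**Figure D4:**
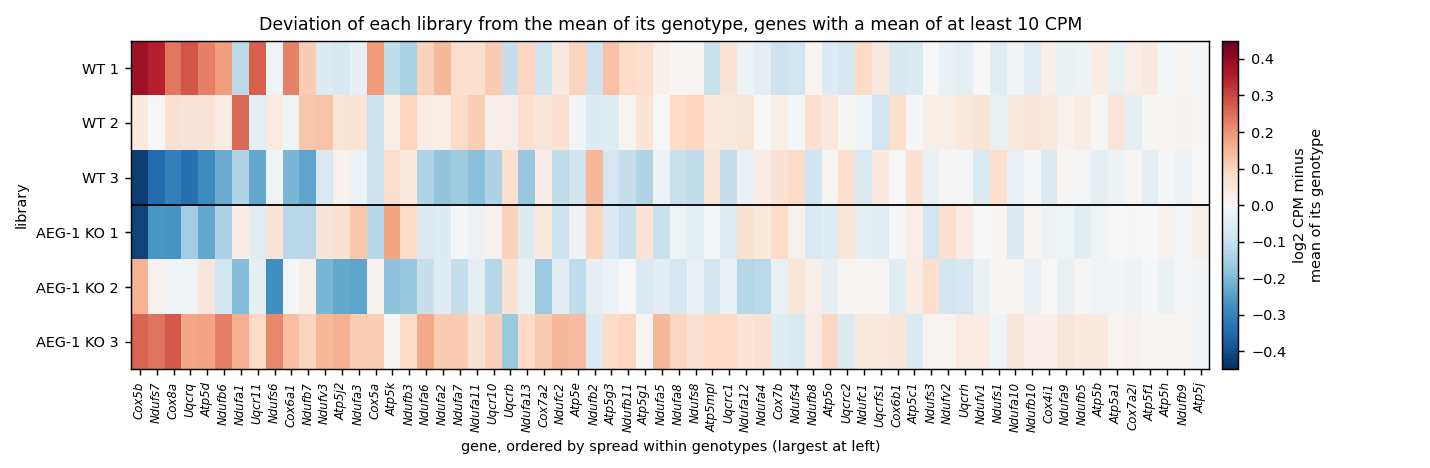
Each cell is the log2 CPM of 1 of 64 subunit genes (averaging 10 CPM or more) in 1 library minus the mean of its genotype, with red above and blue below. At the left, where spread is largest, WT 1 and AEG-1 KO 3 are red and WT 3 and AEG-1 KO 1 are blue, from Cox5b to Atp5d.

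Genes around the 4 complexes were compared in the same fit. None was called in any of 7 lists: complex II with electron carriers (13 tested), assembly factors of complex I (17), complex III (6), complex IV (19) and complex V (4), regulators of mitochondrial gene expression (11) and mitochondrial ribosomal proteins (77). Over all genes tested 6.35% were called, and several of these lists are too short for an absence of calls to say much. The medians of the lists lay between -0.05 and 0.00 on the log2 scale. The gene of each list with the smallest p was Sdhd, a membrane anchor of complex II (114 ± 3.65 against 129 ± 6.15 CPM, log2 fold change 0.18 ± 0.05, edgeR adjusted p = 0.0646), and Nubpl, Bcs1l, Coa7, Atpaf1, Pprc1 and Mrps18b for the others. Mrps18b, of the small mitochondrial ribosomal subunit, came nearest to a call at -0.26 ± 0.07 (edgeR adjusted p = 0.0567). Pprc1, a coactivator related to PGC-1, measured 110, 99.5 and 93.6 CPM in WT and 91.8, 90.03 and 90.8 CPM in AEG-1 KO, without overlap and not called (-0.15 ± 0.06, edgeR adjusted p = 0.174).

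Markers of other cell types differed between the genotypes beside these values. Over all genes tested, 3.31% were called higher and 3.04% lower. Of 6 monocyte markers 5 were called higher, with sums of 56.1 to 59.8 CPM in WT and 83.7 to 87.6 CPM in AEG-1 KO. Of 10 neutrophil markers 5 were called higher and 1 lower (163 to 186 CPM against 205 to 246 CPM), and of 9 fibroblast, stromal and endothelial markers 4 were called higher (7.83 to 8.95 CPM against 12.4 to 14.2 CPM). Of 4 B cell markers 1 was called higher (2.24 to 2.61 CPM against 3.84 to 4.297 CPM). The sum of 4 osteoclast markers was lower instead, at 124 to 141 CPM in WT against 103 to 109 CPM in AEG-1 KO with no overlap. Nearly all of that sum was Acp5, called lower at -0.37 (log2), while Dcstamp was called higher with means of 0.0895 CPM in WT libraries and 0.852 CPM in AEG-1 KO libraries. Of 5 dendritic cell markers only 2 had enough counts to be tested and none was called, and the sums of the 5 overlapped. Sums were at most 0.141 CPM for 4 erythroid markers, 0.154 CPM for 4 T and NK cell markers and 0.486 CPM for 5 muscle and heart markers. The part of these cells in the values of the subunit genes was not tested.

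Motifs of factors known to act at promoters of such genes were counted in the members, as a description with no test. RefSeq windows (GRCm38.p6, 250 bases before to 50 after each start) were found for 65 of the 79 members, in 70 windows. The NRF1 motif, GCGC and TGCGC with any 1 base between them, was searched on both strands and was in 22.9% of these windows and in 4.6% of all 32851 windows. The ETS motif CCGGAAG was in 20.0% against 8.86%, and the YY1 motif AAGATGGCG in 10.0% against 1.4%. The 32851 windows were not matched to those of the members for GC content or level. Some member windows overlap, and those of Ndufa5 hold the same NRF1 match. For each motif, most member windows held no match. The last letters of the ETS motif are the first of the YY1 motif, so matches to these can overlap. A match describes the letters and is not evidence of binding. The window before the start of Cox6a1 (minus strand of chr5:115348959-115349208) is shown because it holds both NRF1 and ETS matches, in capitals:
Cox6a1: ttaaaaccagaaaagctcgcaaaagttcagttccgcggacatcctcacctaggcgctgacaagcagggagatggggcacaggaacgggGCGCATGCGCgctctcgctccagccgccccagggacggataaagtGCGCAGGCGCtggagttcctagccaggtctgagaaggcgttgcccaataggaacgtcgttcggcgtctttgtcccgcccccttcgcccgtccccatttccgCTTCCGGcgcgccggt
Between genotypes Cox6a1 had a log2 fold change of 0.04 ± 0.10, with overlapping groups. The window of Atp5o, the called member, held an NRF1 match, which does not lie wholly in the 250 bases before its start, and no match to the other motifs.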

How the data were processed

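Libraries of 6 macrophage samples were made with an Illumina TruSeq RNA kit, per the labels' protocols. Values in the deposited table are whole-number read counts for each Ensembl identifier, per the file headers. Tools named in the submitters' processing notes are edgeR 3.18.1, featureCounts 1.4.6-p4, Subread, cutadapt 1.9 and FastQC 0.11.2; the builds named there are GRCm38 and mm10. Not given in the sources used here are the annotation release, the strand setting and how multiply matching reads were treated.

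Libraries were grouped by genotype. Of 46983 identifiers, 46488 matched GENCODE mouse release M21 and 495 did not; an additional annotation entry for Atp5o is not in the table, and 1 protein-coding gene that fits the symbol patterns and the individual values of 1 member are not reported here. Members and lists were chosen with earlier results of these data known. The main test was the edgeR 4.0.16 quasi-likelihood test (glmQLFit, legacy false, R 4.3.3) of genotype over all 6 libraries, after filterByExpr at a minimum count of 10 and TMM scaling. Benjamini-Hochberg adjustment ran over all 16115 genes, with calls at 0.05. Each SE was derived from the fold change and its F statistic. CPM use TMM factors. Levels between genes were compared per kilobase of union exon length. Depth was 42548170 to 58947230 counts, and intervals for counts of 0 (3 counts) cover counting error only. No library duplicated another (chi-square per degree of freedom of 5.58 or more between replicates).

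Near-identical copies were genes at another locus that matched a member's principal transcript over 100 nt or more at 95% identity or more (BLAST+ 2.17.0). Genes not annotated as pseudogenes counted as copies only if a match reached the coding sequence of the member. Genes named were Mtdh, called members, per complex the 2 highest members per kilobase and the 2 highest and 2 lowest log2 fold changes at 1 CPM or more, alternative forms, and the gene with the smallest p of each pathway list. Others were named after their values were seen. Roles within complexes were assigned by hand after the values were seen.

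The fit was tested on simulated data of AEG-1 KO against WT over 15961 genes. It recovered 99% of changes at a log2 fold change of 1 and 74% at 0.5, with 0 wrong signs and 5.98% false calls among 184. Alternatives were other scalings and filters, DESeq2 1.42.0, limma-voom 3.58.1, the legacy fit, a replicate block, length and GC offsets (mgcv 1.9.3), and leaving out each library. Adding copies to members and the principal transcript length were added after seeing the data.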

Additional observations from a re-analysis of the deposited data

How the results depend on the processing

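Of 772 alternative fits of 43 named genes, 740 kept their side of the threshold and, where not called, moved by less than their standard error, 5 lost a call, all of Atp5o, 15 gained one and 12 uncalled values moved by more than that. Of all 772, 33 changed sign, none of them with a call. Over all genes, 1023 calls became 227 with a replicate block, 2333 with the length and GC trend removed, and 380 to 1094 when 1 library was left out (441 without WT replicate 2, 667, 380 and 606 without AEG-1 KO replicates 1, 2 and 3). Members called lower numbered 2 with no filter on low counts, 0 with a replicate block, 4 with the length and GC trend removed, 2 with both, 3 with DESeq2 and 0 to 2 without 1 library, and the cause was not tested. Members called higher numbered 1, Cox7a2l, with the length and GC trend removed and 0 under all other alternatives. With a replicate block, Atp5o had -0.25 and an adjusted p of 0.157. Replicate numbers did not pair the libraries: same-numbered libraries deviated with correlations of -0.27, -0.17 and -0.25. The median of the members stayed between -0.09 and -0.02 under every alternative. With near-identical copies added, the AEG-1 KO minus WT difference in the share of Atp5g2 was 0.477 percentage points beside 0.0353 without. In the simulated data 74% of changes at 0.5 on the log2 scale were recovered, and smaller changes were not simulated. Having 3 libraries per genotype limits every comparison.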

Other observations

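Exons of 24 members overlap those of another gene on the opposite strand, and these pairs are uncertain because the sources used here do not give the strand setting of the counting. Of these neighbours, Shmt2, a mitochondrial enzyme of folate metabolism named after its values were seen, shares 32 nt of exon with Ndufa4l2. It measured 44.5 ± 3.01 CPM in the WT libraries and 35.8 ± 3.08 CPM in the AEG-1 KO libraries (SD, n = 3) and fell, at -0.32 ± 0.07 (log2) and an edgeR adjusted p of 0.0397, beside -0.19 ± 0.19 for Ndufa4l2. Smim27 shares 257 nt, or 39.0% of the exon length of Ndufb6, and had a mean of 1.64 CPM in WT libraries and 2.04 CPM in AEG-1 KO libraries, below the 13.02 and 11.1 CPM of Ndufb6. The overlap of Atp5j with Gabpa, which encodes a DNA-binding subunit of the ETS factor NRF2, covers 397 nt. Gabpa measured 63.6 ± 3.64 CPM in the WT libraries and 67.4 ± 3.98 CPM in the AEG-1 KO libraries and was not called.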
